A study of Mus musculus with 36 samples.

Results

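The 10 genes described here encode the classical major histocompatibility complex (MHC) molecules of the C57BL/6 mouse and the proteins that load or control them, and all 10 were found by symbol among the 21889 gene symbols of the expression table. The class II members were H2-Aa, H2-Ab1, H2-Eb1, Cd74 and Ciita, and the class I members were H2-K1, H2-D1, B2m, Tap1 and Tap2. Livers of male C57BL/6 mice (C57BL/6J in the study's methods) with no treatment were collected at 12 ages, 2 days before birth (Day -2), in the first days of life (Days 0, 1, 3 and 5), in the weeks after (Days 10, 15 and 20) and later on Days 25, 30, 45 and 60, from 3 mice per age picked at random out of several litters. Day 0 livers were taken before suckling began. Poly(A) RNA of the whole liver was sequenced, and each level is given as FPKM (fragments per kilobase of transcript per 1000000 mapped fragments), which is scaled for gene length and can be compared between genes. Because whole liver was measured, fewer cells of a type and less RNA per cell cannot be told apart in any value below.

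MHC class I molecules present peptides made inside the cell to CD8 T cells and are carried by nearly every nucleated cell, hepatocytes included. They consist of a heavy chain (H2-K1, H2-D1) and the shared light chain β2-microglobulin (B2m), and the transporter formed by Tap1 and Tap2 brings peptides from the cytosol into the endoplasmic reticulum for loading. MHC class II molecules present peptides from engulfed material to CD4 T cells and are made mainly by professional antigen-presenting cells, which in the liver are Kupffer cells, dendritic cells and B cells, and at a lower level by sinusoidal endothelium. Their α and β chains (H2-Aa with H2-Ab1, H2-Ea with H2-Eb1) assemble on the invariant chain Cd74, and Ciita is the coactivator that switches on class II genes and Cd74. The C57BL/6 strain makes no H2-Ea chain because that gene carries a promoter deletion. The H2-Ea pseudogene entry (H2-Ea-ps) had a median of 0 FPKM in each age group and reached at most 0.0149 FPKM.

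In the mm9 annotation, 7 of the 10 members lie within the MHC on chromosome 17. H2-K1 spans chr17:34132962-34137278 on the minus strand, Tap1 chr17:34324498-34334170 and Tap2 chr17:34340472-34353266 on the plus strand. The class II genes follow with H2-Ab1 at chr17:34400154-34406363 (plus), H2-Aa at chr17:34406276-34424772 (minus) and H2-Eb1 at chr17:34442828-34453144 (plus). H2-D1 lies farther along at chr17:35399675-35404444 (plus). B2m is on chromosome 2 at chr2:121973422-121978819 (plus) and Ciita on chromosome 16, and Cd74 also lies outside the MHC. The annotated ends of H2-Ab1 and H2-Aa overlap, and counting was not stated to use strand, so reads in that overlap could count toward either gene. For H2-D1, 93 of 2003 windows of 100 bases (4.64%) in its longest coding transcript also occurred in another gene, among them H2-Q2, H2-T9 and H2-T23, and its level is uncertain to at least that extent. The other 9 members shared no such window. Only identical windows in protein-coding transcripts were searched, so near-identical sequence and pseudogenes were not covered.

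Class II genes and, in part, class I genes are known to share an upstream module in which the X box binds RFX and CREB-family factors and the Y box binds NF-Y. Class I heavy chain genes also carry enhancer A, a κB site. Promoter sequences from RefSeq (build GRCm38.p6) were found for 6 members, and the 180 bases before the start site are printed for 5 of them and for H2-Q10, a secreted class I molecule of the liver, because the members differed in their course through age. Capitals mark matches to the motifs searched, and each sequence reads toward its gene's start.
H2-Aa, chr17:34287824-34288003, minus strand: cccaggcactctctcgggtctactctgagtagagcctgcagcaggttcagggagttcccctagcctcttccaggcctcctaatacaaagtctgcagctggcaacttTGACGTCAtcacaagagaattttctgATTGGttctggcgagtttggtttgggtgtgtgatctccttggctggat
H2-Eb1, chr17:34305687-34305866, plus strand: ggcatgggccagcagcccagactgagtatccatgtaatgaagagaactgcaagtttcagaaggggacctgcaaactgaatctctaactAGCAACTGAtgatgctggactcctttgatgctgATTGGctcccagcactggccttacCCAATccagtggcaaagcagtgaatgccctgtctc
H2-K1, chr17:34000348-34000527, minus strand: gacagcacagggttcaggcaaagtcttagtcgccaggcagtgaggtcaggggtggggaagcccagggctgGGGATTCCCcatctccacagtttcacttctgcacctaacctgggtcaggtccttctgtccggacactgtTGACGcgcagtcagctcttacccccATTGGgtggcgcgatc
H2-D1, chr17:35262914-35263093, plus strand: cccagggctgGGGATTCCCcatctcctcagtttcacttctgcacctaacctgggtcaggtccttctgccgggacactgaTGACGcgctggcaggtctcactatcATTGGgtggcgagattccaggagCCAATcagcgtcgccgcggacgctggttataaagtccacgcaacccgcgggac
B2m, chr2:122147507-122147686, plus strand: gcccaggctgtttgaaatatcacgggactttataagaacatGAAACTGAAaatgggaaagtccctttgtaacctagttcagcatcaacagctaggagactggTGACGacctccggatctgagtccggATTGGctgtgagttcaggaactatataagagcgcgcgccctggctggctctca
H2-Q10, chr17:35469909-35470088, plus strand: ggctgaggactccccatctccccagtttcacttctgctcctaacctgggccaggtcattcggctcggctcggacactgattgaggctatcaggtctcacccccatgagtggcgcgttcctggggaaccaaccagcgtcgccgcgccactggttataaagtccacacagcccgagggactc

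The motifs were searched on both strands of the windows from 250 bases before to 50 after each of 32851 start sites. A TGACG followed after 20 or 21 bases by ATTGG occurred in 54 of the 32851 windows (0.164%) and stood in the promoters of H2-Aa, H2-K1, H2-D1 and B2m, beginning at -74, -41, -101 and -78. Alone, TGACG occurred in 20.8% and ATTGG in 37.4% of the windows. The X box letters AGNAACNGA, found in 5.35% of the windows, occurred in H2-Eb1 at -92. The enhancer A letters GGGATTCCC, found in 116 windows (0.353%), occurred in H2-K1 at -110 and in H2-D1 at -170, and none of these motifs had a match in the H2-Q10 window. The letters GAAANNGAA, of the kind that interferon regulatory factors bind and found in 8.56% of the windows, occurred in B2m at -139. The Tap1 window held TGACG at -86 and ATTGG only on the opposite strand at -222. H2-K1 and H2-D1 both matched the enhancer A letters and the spaced pair of TGACG and ATTGG, and their levels after Day 15 separated as described below. The motifs were shortened after a first search with their matches known, so the shares do not measure how unusual these matches are. A match is a match of letters only, and binding was not measured.

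The members passed through 3 kinds of course with age. H2-K1 and B2m rose late, from Day 20 on, and stood at their highest age means on Day 60. The class II chains and Cd74 rose around birth, were highest on Day 5, were lower by Day 15 and had later age means between these levels, except Cd74 on Day 45 at 28.9 FPKM. Tap1 and Tap2 rose at birth as well, and their late levels did not differ from the early ones beyond their spread. The test throughout was limma, run on the log2 of FPKM plus 1 over 11149 genes whose mean reached 1 FPKM at 1 or more ages, and p-values were adjusted after Benjamini and Hochberg. Of the 10 members 9 were tested, and Ciita did not reach the minimum. Fold changes on this scale are smaller than those of the FPKM themselves for low genes.

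Birth was the step at which most members moved. From Day -2 to Day 0 all 9 tested members rose, while 13.1% of all tested genes rose. The log2 changes ranged from 0.49 for Tap2 (SE 0.17, adjusted p = 0.0194) to 1.37 for Tap1 (SE 0.43, adjusted p = 0.00903). Cd74 was 5.70, 8.10 and 7.28 FPKM in the 3 mice of Day -2 and 26.8, 12.5 and 20.3 FPKM in those of Day 0. Every Day 0 mouse was above every Day -2 mouse, a log2 change of 1.33 (SE 0.30, adjusted p = 0.000588). How many of all tested genes separated in this way was not counted. H2-D1 was 21.5, 34.2 and 31.6 FPKM before birth and 59.0, 47.6 and 56.7 FPKM at birth, a log2 change of 0.90 (SE 0.18, adjusted p = 0.000117). B2m rose by 0.57 (SE 0.22, adjusted p = 0.0276), with 1 Day 0 mouse at 319 FPKM and the other 2 at 169 and 166 FPKM. The calls for B2m and Tap2 were lost when any 1 of Day -2 replicate 1, Day -2 replicate 3 or Day 0 replicate 1 was left out. Day 0 replicate 1 also carried the skeletal muscle actin Acta1 at 636 FPKM, beside 0.778 and 0.217 FPKM in the other mice of Day 0, and the part of this in the result was not tested.

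The class II chains continued upward to Day 5. H2-Aa, the α chain of I-A, was 5.22 ± 0.264 FPKM (mean ± SD, n = 3) on Day -2, 11.6 ± 3.35 on Day 0, 31.3 ± 7.01 on Day 3 and 41.9 ± 7.90 on Day 5, which was 8.03-fold the Day -2 mean. Its partner H2-Ab1 went from 5.62 ± 1.41 FPKM on Day -2 to 34.6 ± 7.49 FPKM on Day 5. H2-Eb1, the β chain of I-E, had the lowest level of the 3 chains at each age and the steepest early course, from 1.55 ± 0.349 to 17.2 ± 4.498 FPKM, or 11.1-fold. Between Day 1 and Day 3, 3 of 9 tested members rose against 8.22% of all tested genes, and these were H2-Aa (log2 change 0.97, SE 0.27, adjusted p = 0.0166), H2-Ab1 (0.93, SE 0.28, adjusted p = 0.0309) and H2-Eb1 (0.87, SE 0.25, adjusted p = 0.0233). All 3 calls were lost with upper quartile scaling and without Day 1 replicate 1, Day 1 replicate 3, Day 3 replicate 2 or Day 3 replicate 3. From Day 0 to Day 1, Cd74 (0.82, SE 0.30, adjusted p = 0.0377), H2-D1 (0.46, SE 0.18, adjusted p = 0.0466) and B2m (0.77, SE 0.22, adjusted p = 0.00807) had risen, against 23.7% of all tested genes. Of these 3 calls 0 were left without Day 0 replicate 2 or Day 0 replicate 3, and 1 without any 1 of the Day 1 mice, with no filter or with upper quartile scaling. From Day 3 to Day 5 and from Day 5 to Day 10 limma called 0 of 9 members, with 0 at an unadjusted p under 0.05, where 3.2% and 36.3% of all tested genes were called, and Days 3 and 5 did not differ beyond their spread for any class II member, with adjusted p of 0.581 or more.

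**Figure D1:**
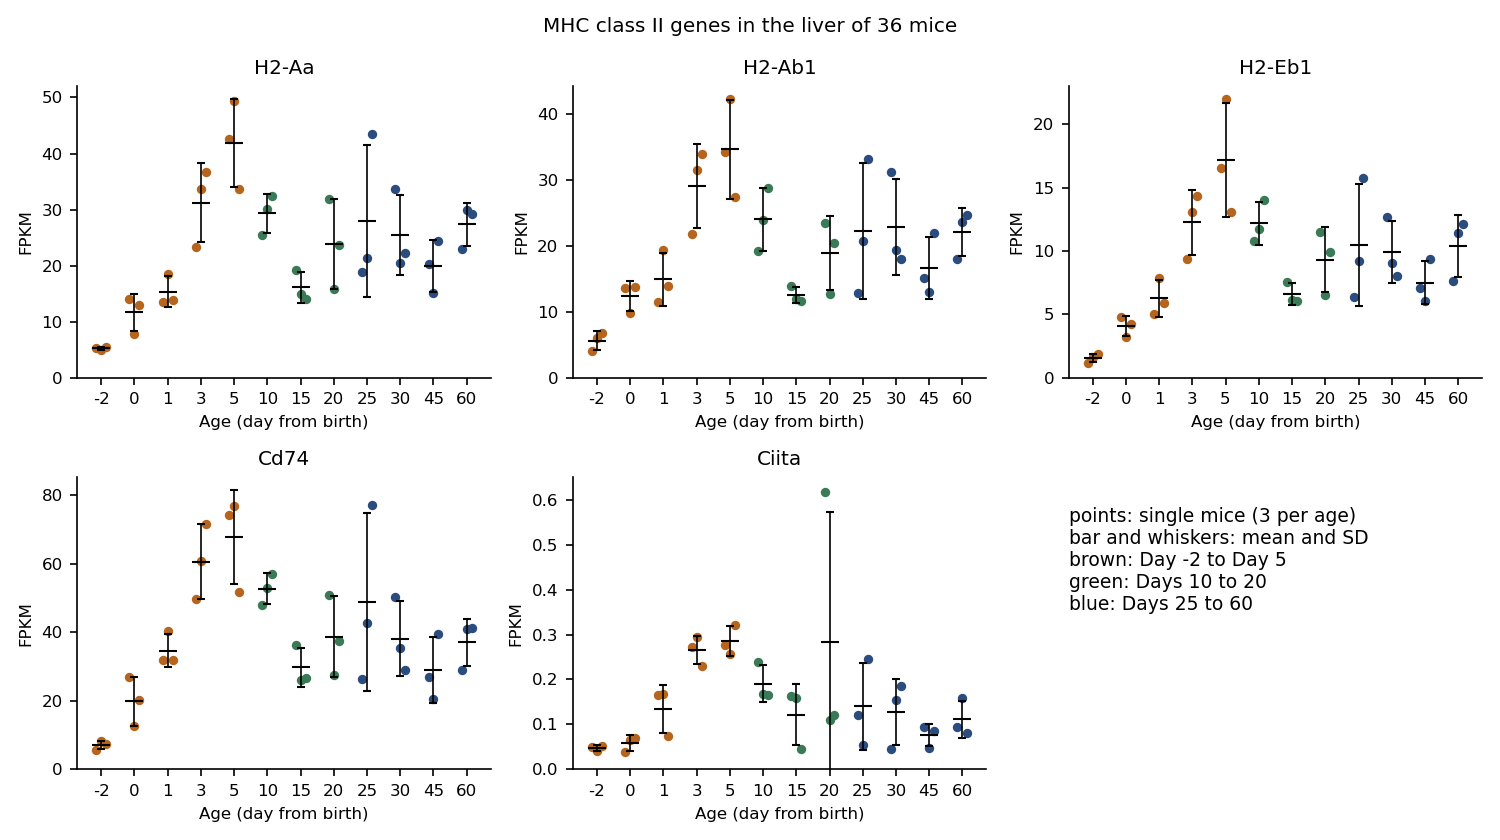
FPKM (linear axes from 0) of H2-Aa, H2-Ab1, H2-Eb1, Cd74 and Ciita against age in days, with 3 mice per age as points and the mean and SD as bar and whiskers (the lower whisker of Ciita on Day 20 is cut at 0). The 3 chains and Cd74 were highest on Day 5, at means of 41.9, 34.6, 17.2 and 67.7 FPKM, and lower on Day 15, and on Days 20 and 25 single mice spread the values widely.

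The class II chains were lower again by Day 15. H2-Aa was 42.6, 49.5 and 33.7 FPKM in the 3 mice of Day 5, 25.5, 30.0 and 32.4 FPKM on Day 10, and 19.3, 15.0 and 14.03 FPKM on Day 15. No mouse of Day 15 reached any mouse of Day 10, and how many of all tested genes separated at this step was not counted. From Day 10 to Day 15 the log2 change was -0.83 for H2-Aa (SE 0.27, adjusted p = 0.0396), -0.88 for H2-Ab1 (SE 0.28, adjusted p = 0.0393) and -0.79 for H2-Eb1 (SE 0.25, adjusted p = 0.0358). Those 3 of 9 tested members fell at this step, against 10.5% of all tested genes. The count was 0 with no filter, with upper quartile scaling and without Day 10 replicate 2, Day 10 replicate 3, Day 15 replicate 2 or Day 15 replicate 3, and 1 without Day 10 replicate 1. Cd74 changed by -0.82 (SE 0.30, adjusted p = 0.0768) and did not pass. After Day 15 no step of a class II chain or of Cd74 passed the test, and the age means of H2-Aa stayed between 19.9 and 27.9 FPKM.

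Cd74, the invariant chain, had the highest level of the class II members at every age. It went from 7.03 ± 1.22 FPKM on Day -2 to 34.6 ± 4.89 on Day 1, 67.7 ± 13.7 on Day 5, 29.7 ± 5.80 on Day 15 and 37.02 ± 6.89 on Day 60. The ratio of Cd74 to H2-Aa FPKM was 1.35 ± 0.269 on Day -2 and highest on Day 1 at 2.27 ± 0.0853. It then lay between 1.35 ± 0.0728 on Day 60 and 1.96 ± 0.156 on Day 3. Each mouse of Day 1 was above each mouse of the other 11 ages in this ratio. The margin was small, from 2.12 in Day 3 replicate 1 to 2.18 in Day 1 replicate 2. Day 1 was singled out because its ratio was highest, so the separation is a description and not a test. The ratios among the chains varied less, with age means of 0.926 to 1.29 for H2-Aa over H2-Ab1 and 2.42 to 3.504 for H2-Aa over H2-Eb1.

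Ciita, the class II coactivator, was the lowest member, with age means from 0.0467 ± 0.00627 FPKM on Day -2 to 0.285 ± 0.0334 FPKM on Day 5. An estimate from the size of 1 fragment puts between about 16.5 and 264 fragments behind a value, with a median of 58.9, so single values carry sizeable counting error. The 3 mice were at 0.272, 0.294 and 0.231 FPKM on Day 3 and at 0.277, 0.257 and 0.322 FPKM on Day 5, above all mice of Day -2, Day 0 and Day 1. On Day 15 they were at 0.163, 0.158 and 0.0443 FPKM and on Day 60 at 0.0943, 0.158 and 0.0802 FPKM. Its highest age means were thus those of Days 3 and 5, the ages at which the class II chains were also highest, and Day 20, where 1 mouse stood at 0.619 FPKM. Without the minimum of 1 FPKM, limma gave adjusted p = 0.0452 for Day 5 against Day 60 (log2 difference 0.21) and no other call for Ciita in the 26 comparisons.

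Day 60 was the adult reference, and all comparisons with it share the same 3 mice. All 9 tested members differed from it at 1 or more ages, as did 90.7% of all tested genes. On Day -2, 8 of 9 tested members were lower than on Day 60 (18.6% of all tested genes were lower), and Tap1 was the exception (log2 difference -0.70, adjusted p = 0.143). On Day 0, 7 were lower (background 20.3%), and on Day 1, 5 (11.7%). On Day 3, H2-K1, H2-D1 and B2m were lower (background 10.3%) and Cd74 and Tap1 higher (55.7%). On Day 5, H2-K1, H2-D1 and B2m were lower than on Day 60 (background 8.5%), and Cd74 (log2 difference 0.85, SE 0.30, adjusted p = 0.015), H2-Eb1 (0.67, SE 0.25, adjusted p = 0.0211) and Tap1 (1.12, SE 0.43, adjusted p = 0.0232) were higher, against 56.9% of all tested genes, so being higher on Day 5 was common in this liver. With upper quartile scaling these 3 differences shrank to 0.23, 0.08 and 0.55 and were no longer called, and those of H2-Eb1 and Cd74 were also lost (0.48 and 0.69) without the 5 libraries rich in pancreatic enzyme RNA, 1 of them from Day 60. Without Day 5 replicate 2 or Day 60 replicate 1 all 3 calls were lost, and without Day 5 replicate 1 those of Cd74 and Tap1. H2-Aa (0.59, adjusted p = 0.0557) and H2-Ab1 (0.62, adjusted p = 0.0564) did not pass and were gained when any 1 of 7 and 5 libraries was left out. On Day 3 the count fell from 5 to 3 with upper quartile or TPM scaling and without Day 3 replicate 2, Day 3 replicate 3, Day 60 replicate 1 or Day 60 replicate 2. On Day 10, H2-K1, H2-D1 and B2m were lower than on Day 60 (background 10.6%). On Day 15, 5 members were lower than on Day 60 (background 8.95%), on Day 20 H2-K1 and B2m (6.99%), and on Day 25 B2m alone (3.24%). The Day 15 count fell to 3 without the filter, without the pancreatic libraries, and without Day 15 replicate 2, Day 15 replicate 3, Day 60 replicate 2 or Day 60 replicate 3. The Day 20 count was 4 without Day 20 replicate 2, and the Day 25 count 2 without Day 20 replicate 1. On Days 30 and 45 limma called 0 of 9 members, and 0 of 9 had an unadjusted p under 0.05, with 3.56% and 0.233% of all tested genes called.

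H2-K1, a classical class I heavy chain, had the largest change of the members. Its level was 22.3 ± 7.92 FPKM on Day -2, 53.2 ± 8.61 on Day 5, 78.6 ± 12.1 on Day 15, 186 ± 49.6 on Day 20, 349 ± 104 on Day 25 and 454.9 ± 63.6 on Day 60, 20.4-fold the Day -2 mean. The 15 mice of Day -2 to Day 5 ranged from 14.2 to 66.7 FPKM (median 46.4), the 9 mice of Days 10 to 20 from 43.3 to 242 (median 79.8), and the 12 mice of Days 25 to 60 from 239 to 520 (median 429). The last group did not overlap the first. On Day 15 the mice were at 74.0, 92.4 and 69.4 FPKM and on Day 20 at 147, 169 and 242 FPKM, a log2 change of 1.21 (SE 0.24, adjusted p = 0.00517). On Day 25 they were at 239, 362 and 447 FPKM, a further change of 0.89 (SE 0.24, adjusted p = 0.0203), whose call was lost without Day 20 replicate 1, Day 20 replicate 2, Day 25 replicate 2 or Day 25 replicate 3 (log2 change between 0.69 and 1.14). From Day 25 on, limma called 0 of 9 members at any of the 3 steps (1.64%, 1.03% and 0.233% of all tested genes), and B2m from Day 25 to Day 30 was the 1 member at an unadjusted p under 0.05.

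B2m, the light chain shared by all class I molecules, was the most abundant member at every age and rose on nearly the same schedule. It was 140 ± 8.32 FPKM on Day -2, 288 ± 37.4 on Day 5, 675 ± 48.2 on Day 20, 927 ± 205 on Day 25, 1366 ± 149 on Day 30 and 1844 ± 160 on Day 60, 13.2-fold the Day -2 mean. From Day 15, with 441, 376 and 278 FPKM, to Day 20, with 686, 622 and 717 FPKM, the log2 change was 0.91 (SE 0.22, adjusted p = 0.0196). H2-K1 and B2m were the 2 of 9 tested members that rose at this step, at which 0.834% of all tested genes rose, and H2-K1 was the 1 that rose from Day 20 to Day 25, where 3.94% did. The count from Day 15 to Day 20 was 0 without Day 20 replicate 3 or without the 5 pancreatic libraries, and 1 without Day 15 replicate 3 or Day 20 replicate 2. B2m was also the 1 member that was still higher on Days 45 and 60 than on Days 25 and 30 (log2 difference 0.66, SE 0.15, adjusted p = 0.00522), against 2.69% of all tested genes.

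H2-D1, the other classical heavy chain of this strain, rose at birth as H2-K1 did and changed less afterwards. It was 29.1 ± 6.72 FPKM on Day -2, 75.1 ± 5.67 on Day 1, 84.1 ± 10.97 on Day 5, 147 ± 30.99 on Day 20, 212 ± 63.0 on Day 25 and 168 ± 14.1 on Day 60. Its mice on Day 60, at 155, 183 and 166 FPKM, lay within the range of the Day 25 mice, at 165, 186 and 283 FPKM, or just below it. The steps from Day 15 to 20 (log2 change 0.61, adjusted p = 0.0713) and from Day 20 to 25 (0.51, adjusted p = 0.083) did not pass. Days 25 to 60 against Days 10 to 20 differed by 0.77 (SE 0.10, adjusted p = 8.4e-08), beside 2.04 (SE 0.13, adjusted p = 1.25e-13) for H2-K1 and 1.8 (SE 0.12, adjusted p = 1.58e-13) for B2m.

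**Figure D2:**
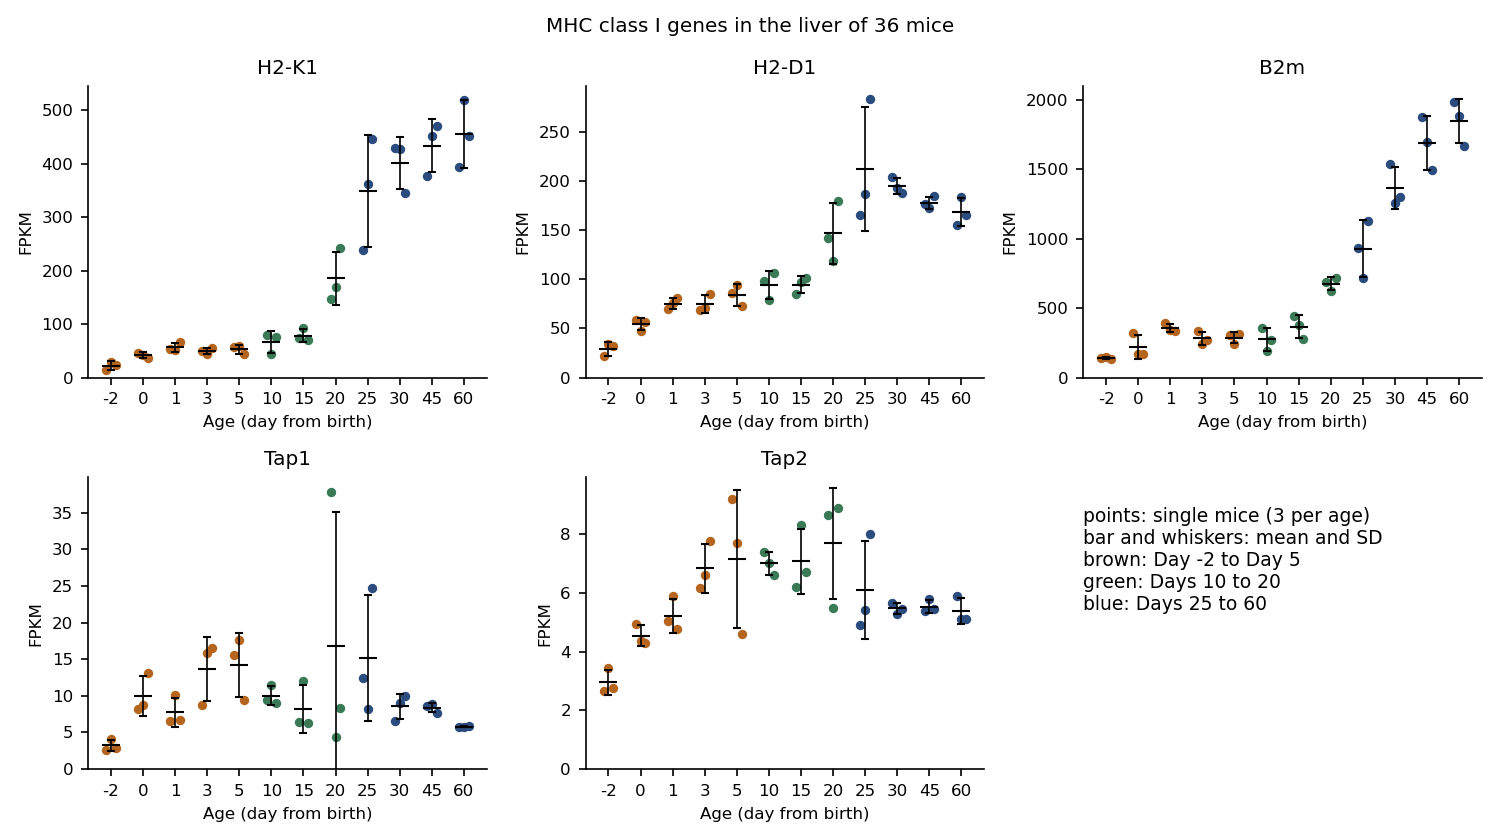
FPKM (linear axes from 0) of H2-K1, H2-D1, B2m, Tap1 and Tap2 against age in days, with 3 mice per age as points and the mean and SD as bar and whiskers. H2-K1 and B2m reached 454.9 and 1844 FPKM on Day 60, H2-D1 was highest on Day 25 at 212 FPKM, and 1 mouse of Day 20 stood at 37.8 FPKM for Tap1.

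Compared within each mouse, the FPKM of H2-K1 was below that of H2-D1 up to Day 15 and above it from Day 20. The ratio of H2-K1 to H2-D1 FPKM was 0.550 to 0.948 in the 21 mice up to Day 15 and 1.035 to 2.84 in the 15 mice from Day 20 on, with no overlap. This cut lies where the ratio passed 1 and is not a border of the age groups. The lack of overlap at it is a description and not a test. Its age mean was 0.752 ± 0.113 on Day -2, 0.632 ± 0.0326 on Day 5, 1.27 ± 0.205 on Day 20, 1.65 ± 0.256 on Day 25 and 2.70 ± 0.156 on Day 60. A ratio within a mouse does not depend on how that library was scaled. It does depend on the level of H2-D1, which is uncertain through the windows shared with other genes. The nearest ratios, 0.948 and 1.035, lie close to 1, so the age at which the ratio passed 1 is uncertain as well. The ratio of B2m to the sum of the 2 heavy chains moved less, between age means of 1.70 ± 0.274 on Day 10 and 3.00 ± 0.533 on Day 60, and its mice overlapped between most ages. The sum of H2-K1 and H2-D1 was 1.48 ± 0.113 times that of the 3 class II chains on Day 5 and 14.4 ± 3.47 times on Day 45.

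**Figure D3:**
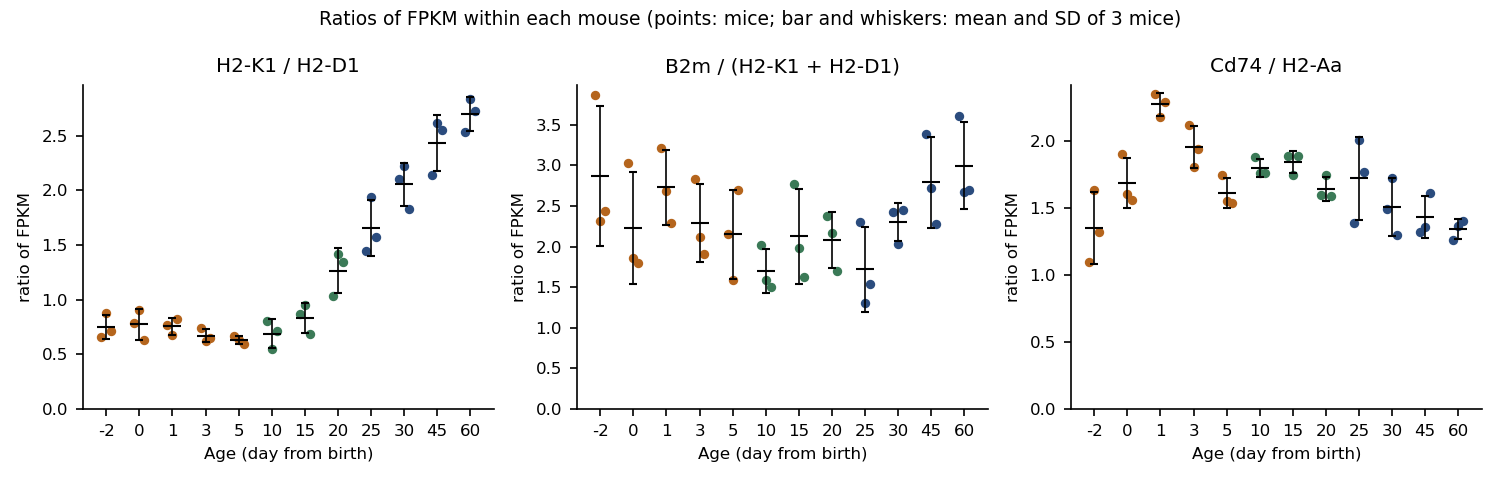
Ratios of FPKM within each mouse (linear axes from 0) for H2-K1 over H2-D1, B2m over the sum of both, and Cd74 over H2-Aa, against age in days, with 3 mice per age as points and mean and SD as bar and whiskers. The first ratio was under 0.948 in each mouse up to Day 15 and at least 1.035 in each mouse from Day 20, and the third was highest on Day 1 at 2.27.

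Tap1 and Tap2, the subunits of the peptide transporter, did not follow the heavy chains. Tap2 was 2.95 ± 0.426 FPKM on Day -2, 7.16 ± 2.34 on Day 5, 7.07 ± 1.09 on Day 15 and 5.38 ± 0.442 on Day 60, and was lower on Days 25 to 60 than on Days 10 to 20 (log2 difference -0.31, SE 0.09, adjusted p = 0.00575). With upper quartile scaling that difference was -0.19 and no longer called. Tap1 was 3.23 ± 0.793 FPKM on Day -2, 14.2 ± 4.30 on Day 5, 16.8 ± 18.3 on Day 20 and 5.77 ± 0.095 on Day 60. Its Day 20 mean rested on 1 mouse, as described below. Between Days 25 to 60 and Day -2 to Day 5 the log2 difference was 0.01 for Tap1 (SE 0.20, adjusted p = 0.95) and 0.11 for Tap2 (SE 0.08, adjusted p = 0.2). Upper quartile scaling made these 0.58 and 0.65, both called, so the size and the calls of the transporter genes against the early ages depend on the scaling.

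Over the broad age groups, 7 of 9 tested members were higher on Days 25 to 60 than from Day -2 to Day 5 and 0 were lower, where 15.5% of all tested genes were higher and 70.2% lower. The median log2 difference was 0.48 over the 9 members and -0.54 over all tested genes (-0.14 with upper quartile scaling). It was 3.23 for H2-K1 (SE 0.12, adjusted p = 7.64e-21), 2.53 for B2m (SE 0.10, adjusted p = 1.82e-19) and 1.63 for H2-D1 (SE 0.08, adjusted p = 4.9e-17). For these 3 of 9 members every late mouse was above every early mouse, as for 3.51% of all tested genes. B2m was the 1 member for which every late mouse was also above every mouse of Days 10 to 20 (2.32% of all tested genes), and for 0 of 9 members every mouse of Days 10 to 20 was above every early mouse (1.5%). The class II differences were smaller, and the early group holds both their lowest age, Day -2, and their highest, Day 5. They were 0.52 for H2-Aa (SE 0.13, adjusted p = 0.000418), 0.48 for H2-Eb1 (SE 0.12, adjusted p = 0.000564), 0.32 for H2-Ab1 (SE 0.13, adjusted p = 0.0294) and 0.32 for Cd74 (SE 0.14, adjusted p = 0.0417). The calls for H2-Ab1 and Cd74 were lost when any 1 of 9 and 11 libraries was left out. Days 10 to 20 against the early group gave 7 higher and 0 lower (14.6% and 61.2% of all tested genes), and Days 25 to 60 against Days 10 to 20 gave 3 higher and 1 lower (12.4% and 44.9%).

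**Figure D4:**
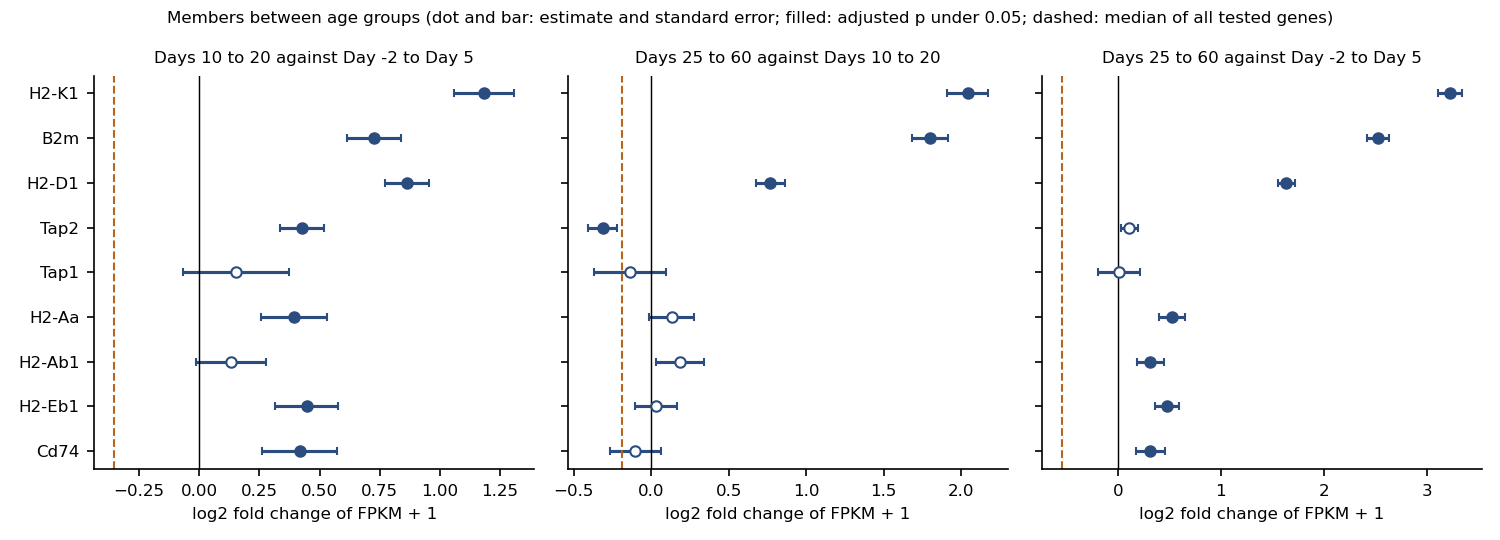
Log2 fold changes of FPKM + 1 with standard errors for the 9 tested members in 3 comparisons of age groups (each panel has its own linear scale), filled where the adjusted p was under 0.05, with the median of all tested genes dashed. H2-K1, B2m and H2-D1 were higher in each comparison, up to 3.23, while the class II members lay between -0.10 and 0.52.

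One mouse of Day 20 stood apart in genes that interferon is known to induce. The summed level of 19 genes of the interferon gamma pathway was 550 FPKM in Day 20 replicate 1, where the lowest mouse of Day 20 had 85.7, the 3 mice of Day 60 had 78.2 to 91.5, and the highest mouse of any other age had 225. Of these genes 16 were highest in it among the 3 mice of its age, but counts of this size were also found in Day 10 replicate 1 (15) and Day 5 replicate 1 (14), whose ages had sums of 111 to 145 and 149 to 209 FPKM. The genes named next were chosen after their values were seen. Igtp, an interferon-induced GTPase, was 168 FPKM in this mouse beside 8.38 and 11.01 in the others, and Irf1, an interferon-induced transcription factor, was 33.1 FPKM beside 4.32 and 5.42. Ifng itself was 0.0496 FPKM beside 0.00973 and 0.01099, a level too low to read.

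The members split in that mouse. Tap1 was 37.8 FPKM beside 4.35 and 8.28, or 5.99 times the mean of the other 2, and Ciita was 0.619 FPKM beside 0.110 and 0.121, or 5.37 times. Psmb9, an immunoproteasome subunit whose gene neighbours Tap1, was 40.3 FPKM beside 9.50 and 13.6, and Nlrc5, the class I coactivator, was 1.37 FPKM beside 0.219 and 0.373. Psmb9 and Tap1 overlap in the annotation by their first bases. The class II chains and Cd74 were 1.403 to 1.62 times the mean of the other 2 mice, and Cd74 was 51.0 FPKM beside 27.6 and 37.6. B2m, at 686 FPKM, lay between the other mice (622 and 717), as did H2-D1, and H2-K1 was the lowest of the 3 at 147 FPKM beside 169 and 242. Day 25 replicate 3 was highest in 12 of the 19 interferon genes and also in all 10 members, with Tap1 at 24.8 FPKM (beside 8.26 and 12.4) and Cd74 at 77.2 FPKM (beside 26.2 and 42.7). Day 15 replicate 2 had Igtp at 40.9 FPKM (beside 12.5 and 13.98) and Tap1 at 12.0 FPKM (beside 6.28 and 6.40). These are single mice, and what set them apart was not tested. Without the first 2 of them together, Tap1 on Days 10 to 20 against the early group went from a log2 difference of 0.15 to -0.12, and the rise of H2-K1 from Day 20 to Day 25 fell to 0.54 and was no longer called. The late against early differences of H2-Ab1 and Cd74 became 0.24 and 0.22, also no longer called.

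**Figure D5:**
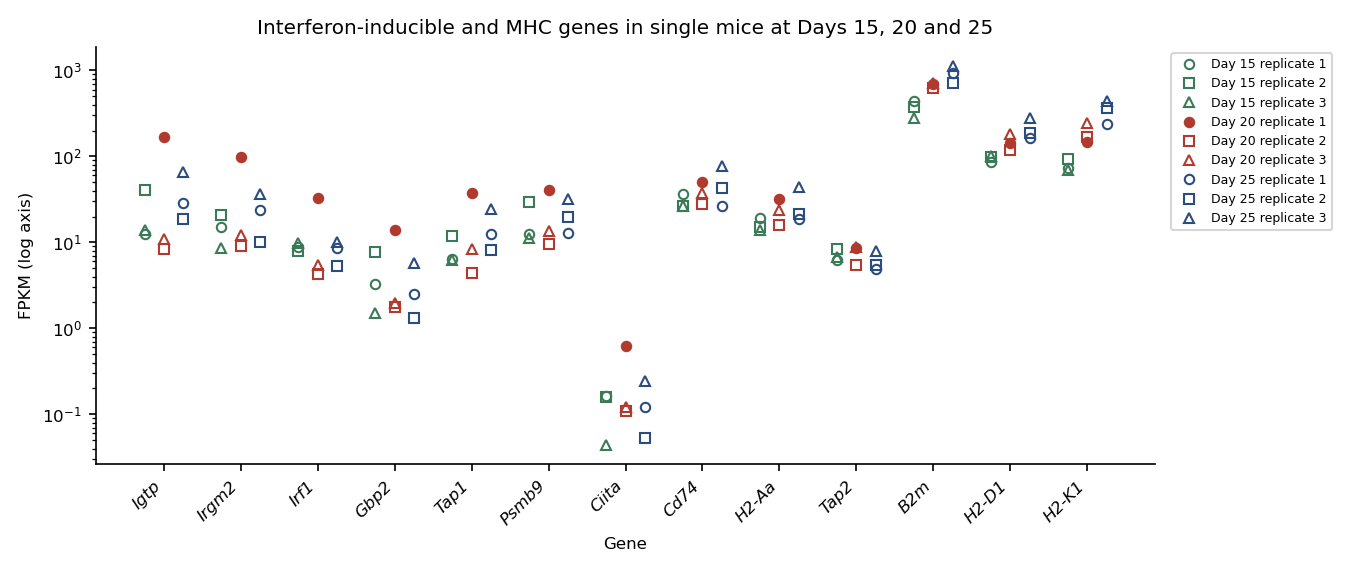
FPKM on a log axis of 4 interferon-inducible genes, Psmb9 and 8 members in the 9 single mice of Days 15, 20 and 25, with Day 20 replicate 1 as filled circles. That mouse was highest among the 9 for Igtp at 168 FPKM, Tap1 at 37.8 and Ciita at 0.619, and not for H2-K1 at 147.

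The remaining genes of the pathway, held in lists beside the members, moved differently from the members in several cases. All counts are for Days 25 to 60 against Day -2 to Day 5, where 15.5% of all tested genes were higher and 70.2% lower. Of 10 tested other class II presentation genes, 9 fell and 0 rose (median log2 difference -0.68), among them Ifi30, a lysosomal thiol reductase that opens antigens for class II (-2.12, SE 0.08, adjusted p = 9.31e-20), and Cd86, a costimulatory ligand (-1.28, SE 0.07, adjusted p = 3.5e-16). Of 7 genes for factors of the class II promoter module 5 fell and 1 rose. Their median log2 difference was -0.51, beside -0.54 over all tested genes, so this count and median were near the background. The NF-Y subunit Nfya fell by 1.84 (SE 0.08, adjusted p = 2.05e-19) and Nfyc by 1.02 (SE 0.05, adjusted p = 4.45e-18), and the RFX subunit Rfxank rose by 0.37 (SE 0.06, adjusted p = 4.72e-07). Of 11 other genes of class I peptide supply and loading 3 rose and 4 fell (median 0.03). Erap1, the peptide-trimming aminopeptidase, rose by 0.44 (SE 0.17, adjusted p = 0.0187) and Tapbp (tapasin) by 0.34 (SE 0.09, adjusted p = 0.000998), while the proteasome activator subunit Psme1 fell by 0.82 (SE 0.10, adjusted p = 2.12e-08) and the immunoproteasome subunit Psmb10 by 0.53 (SE 0.13, adjusted p = 0.000416).

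Non-classical class I and class I-like genes mostly rose. Of 17 tested 12 rose and 2 fell, with a median log2 difference of 0.96. Cd1d1, which presents lipids to NKT cells, rose by 2.68 (SE 0.10, adjusted p = 7.02e-21), and H2-Q7 by 2.33 (SE 0.12, adjusted p = 3.97e-17). H2-T24 fell by 1.597 (SE 0.08, adjusted p = 4.46e-17) and H2-M3, which presents N-formyl peptides, by 0.33 (SE 0.06, adjusted p = 1.35e-05). H2-Q10, chosen after its values were seen, had the highest median of the list on Days 25 to 60, 848 FPKM. Its mice were at 332, 318 and 320 FPKM on Day 20 and at 748, 1043 and 839 FPKM on Day 25. No mouse up to Day 20 exceeded 385 FPKM and no mouse from Day 25 on was under 661 FPKM, which is a description and not a test. How many of all tested genes separated at this cut was not counted. The step from Day 20 to Day 25 had a log2 change of 1.42 (SE 0.14, adjusted p = 1.57e-08), and 3.94% of all tested genes rose at it. H2-Q10 shared 2.06% of its windows with H2-Q2 and H2-T22, so part of its reads may be theirs. The interferon gamma pathway list gave 2 higher and 8 lower of 17 tested (median -0.26), with Cxcl9 (1.13, SE 0.12, adjusted p = 6.42e-10) and Iigp1 (0.83, SE 0.33, adjusted p = 0.0199) higher and the receptor chain Ifngr1 (-1.52, SE 0.09, adjusted p = 1.87e-15) and Irf8 (-1.71, SE 0.11, adjusted p = 4.48e-15) lower.

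Markers of the cells known to carry class II ran in several courses. Counts of late against early genes stand beside 70.2% of all tested genes lower and 15.5% higher. All 10 tested B cell genes were lower on Days 25 to 60 than from Day -2 to Day 5, and the summed B cell list of 11 genes was 27.02 to 82.3 FPKM in the early mice and 1.59 to 3.91 FPKM in the late mice. The antigen receptor subunit Cd79a had a median of 13.99 FPKM in the early and 0.631 FPKM in the late mice. By age the mean B cell sum was 33.7 FPKM on Day -2, 72.9 FPKM on Day 1 and 33.6 FPKM on Day 5, the age at which class II was highest. Of 9 dendritic cell genes 3 were tested and 3 were lower, and the list's sum was 3.15 to 5.72 FPKM early and 0.895 to 1.78 FPKM late, with the integrin Itgax at a median of 0.126 and Flt3 at 0.0305 FPKM in the late mice. The highest age mean of that sum was on Day 5, at 5.61 FPKM, and the sum of 8 sinusoidal endothelium genes was also highest on Day 5, with 58.5 FPKM on Day -2, 144 FPKM on Day 5 and 78.8 FPKM on Day 60. Of 12 Kupffer cell and macrophage genes 10 fell and 2 rose, and their sum was 216 to 524 FPKM early and 132 to 268 FPKM late. The 2 that rose were Clec4f, a lectin of Kupffer cells (0.58, SE 0.13, adjusted p = 0.000199), and Vsig4 (0.48, SE 0.12, adjusted p = 0.000495), and the lipid-binding protein Cd5l fell by 0.68 (SE 0.15, adjusted p = 0.000133). The largest falls of the list were those of Marco (-1.91, SE 0.18, adjusted p = 5.73e-11) and Cd68 (-1.55, SE 0.10, adjusted p = 1.02e-14). A course by age is given for Clec4f only, 1 of the 2 that rose, and it does not stand for the list. Clec4f was 3.17 ± 1.24 FPKM on Day -2, 14.1 ± 5.27 on Day 0, 32.6 ± 6.24 on Day 5, 25.5 ± 7.87 on Day 15 and 22.4 ± 4.73 on Day 60. The sum of all 12 genes had its highest age mean on Day 1, not Day 5. It was 262 FPKM on Day -2, 499 FPKM on Day 1, 457 FPKM on Day 5 and 157 FPKM on Day 60. T cells are not among the class II carriers named above, and the sum of 10 T cell genes was likewise highest on Day 5, at a mean of 6.65 FPKM. Of these genes 8 had a median under 0.5 FPKM in the early mice. The part of any cell type in the class II levels was not tested.

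Of the other lists, hepatocyte genes gave 6 higher and 1 lower of 8, and sinusoidal endothelium gave 2 higher and 6 lower of 8. The hepatocyte sum was at least 7698 FPKM in every mouse of both groups but changed within the early group. Its age mean was 8397 FPKM on Day -2, 42905 on Day 0 and 41831 on Day 5. From Day -2 to Day 0 the mean sum of the 9 erythroid genes went from 169420 to 78494 FPKM. The part of these shifts in the rise of the members at birth was not tested. The 9 erythroid and 8 neutrophil precursor genes of the blood-forming fetal liver were all lower in the late mice. Of 3 tested T cell genes 2 were lower and of 2 tested NK cell genes 2. Of 7 exocrine pancreas genes 2 were lower, with 5 libraries of 5 ages above 1000 FPKM for chymotrypsinogen (Ctrb1), and of 6 tested skeletal muscle genes 4 were lower. As 70.2% of all tested genes were lower in the late mice, the counts for endothelium, T cells and skeletal muscle were near the background. Replicates of an age correlated across genes at Pearson's r of 0.952 or more, with a median of 0.978 over 36 pairs, and depth between libraries, read from low genes, varied from 0.893 to 1.22 times the mean.

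The genes whose 12 age means ran most like those of the members were looked up among all tested genes, as a description with no test. For the mean course of the 5 class I members these were Rilp (Pearson's r = 0.99), Tat (0.98), Ces1d (0.97), Aldh1l1 (0.97) and Slc27a5 (0.97), of which Tat, a tyrosine-degrading enzyme, and Slc27a5, a bile acid ligase, are known from hepatocytes. That mean course includes Tap1 and Tap2, which did not follow the heavy chains. For the mean course of H2-Aa, H2-Ab1, H2-Eb1 and Cd74 they were Prdx1 (0.96), Acsf3 (0.93), Dvl1 (0.93), Bhmt2 (0.93) and Slc46a1 (0.93). Ranks 6 to 10, at 0.91 to 0.92, were Arhgef10l, Clec4f, Apoc4, Yipf1 and Cldn3. With upper quartile scaling 3 of the 5 class I genes and 0 of the 5 class II genes were still among the first 5, so the class II neighbours rest on the scaling. With pseudocount 0.1 still fewer of the class I genes were kept.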

How the data were processed

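The authors made 1 table of FPKM values (fragments per kilobase of transcript per 1000000 mapped fragments) with Cufflinks 1.0.3 after alignment with TopHat 1.2.0 to the mouse genome mm9 (versions from the submitters' processing notes), and deposited it for 36 livers (12 ages, 3 mice each) from poly(A) libraries. Age groups come from the labels. Counts and the depth of each library were not given, and low values were whole multiples of 1 fragment, within 0.1, in only 66.0% of 3282 values checked, so whole reads were not recovered. Fragment numbers behind a value were estimated from 34 genes with 1 transcript and are approximate.

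The members and lists were chosen with earlier results of these data known. Tests used limma 3.58.1 (R 4.3.3) on log2(FPKM + 1) with all 36 livers in 1 model with age as factor, a mean-variance trend and Benjamini-Hochberg adjustment over 11149 genes with a mean of 1 FPKM or more at 1 or more ages, two-sided, at 0.05. The model was tested on simulated data. Mice are separate animals, and the replicate numbers were not taken as pairs. Genes named are the 10 members, up to 2 genes with the largest rise and 2 with the largest fall per list among those past the threshold, 7 cell markers, H2-Ea and the 5 genes most like each class. Other named genes were chosen after their values were seen. Alternatives were pseudocount 0.1, no filter, a filter at 5 FPKM, upper quartile and TPM scaling, a replicate block, no trend, each library left out, and 2 sets of libraries left out that were chosen after seeing the data. Promoter motifs were shortened after a first search, with their matches known. Promoters came from RefSeq (GRCm38.p6), gene positions from GENCODE on mm9. Python 3.11.15, pandas 2.3.3 and matplotlib 3.10.9 were used. Some genes are not reported here.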

Additional observations from a re-analysis of the deposited data

How the results depend on the processing

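The counts over all ages against Day 60, over the 4 comparisons of age groups and over all steps stayed within 1.5 times the main count under pseudocount 0.1, no filter, a filter at 5 FPKM, upper quartile scaling, TPM scaling and no mean-variance trend. Counts at single ages and steps did not all do so. With no filter, Day 0 to Day 1 went from 3 to 1, Day 10 to Day 15 from 3 to 0 and Day 15 against Day 60 from 5 to 3. With upper quartile scaling, Day 0 to Day 1 went from 3 to 1, Day 1 to Day 3 and Day 10 to Day 15 from 3 to 0, Day 5 to Day 10 from 0 to 1, and Days 3 and 5 against Day 60 from 5 and 6 to 3. With TPM scaling, Day 20 to Day 25 went from 1 to 2 and Day 3 against Day 60 from 5 to 3. Without the 5 libraries above 1000 FPKM for Ctrb1 (Day 0 replicate 3, Day 15 replicate 3, Day 20 replicate 2, Day 45 replicate 1, Day 60 replicate 1), calls over the 11 steps between neighbouring ages went from 21 to 12, with fewer samples in the fit, and were 0 from Day 0 to Day 1, Day 10 to Day 15, Day 15 to Day 20 and Day 20 to Day 25. Against Day 60, the Day 20 count went from 2 to 4. Of the 5 genes most like the class I members, 2 were kept with pseudocount 0.1 and 3 with upper quartile scaling, and of those most like the class II members 0 with upper quartile scaling. Leaving out each library in turn gave 8 to 9 members differing from Day 60 at 1 or more ages (main 9), 36 to 46 calls against Day 60 (42), 5 to 7 for Days 25 to 60 against Day -2 to Day 5 (7), 6 to 7 for Days 10 to 20 against the same (7), 4 and 1 throughout for the 2 later comparisons, 16 to 23 over the steps (21), 108 to 116 over the lists (113), and 3 to 5 and 2 to 5 kept likeness genes for class I and class II. Upper quartile scaling gave 103 calls over the lists, 41 of them higher, where the main scaling gave 113 with 28 higher.

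Replicate numbers marked different animals. Same-numbered residuals correlated at a median of 0.13 (104 of 198 pairs over 0.1), against -0.048 for other numbers (147 of 396 pairs). Same-numbered libraries were thus somewhat more alike, and what they shared was not tested. The numbers were not taken as pairs because the mice are separate animals. With the replicate number as a block the counts were 42, 7, 7, 4, 1 and 22 over the steps, and 113 over the lists.

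Directions that turned belong to differences that had not passed the test. With upper quartile scaling, Cd74 on Days 25 to 60 against Days 10 to 20 became 0.0396, and on Day 5 against Day 60 H2-Aa became -0.0245 and Tap2 -0.22. Without Day 20 replicate 1 and Day 25 replicate 3 together, Tap1 became -0.087 (late against early), -0.12 (middle against early) and 0.0345 (late against middle), H2-Aa, H2-Eb1 and Tap2 on Days 45 and 60 against Days 25 and 30 became 0.0456, 0.0043 and 0.032, and the Day 20 to Day 25 step of H2-Eb1 became -0.062. Without the 5 Ctrb1 libraries, H2-Eb1 late against middle became -0.000261, and the Day 20 to Day 25 steps of H2-Aa, H2-Ab1, H2-Eb1 and Tap1 became -0.0754, -0.0779, -0.11 and -0.37. With 1 library left out, Tap1 ranged from -0.087 to 0.0974 (late against early), -0.12 to 0.36 (middle against early) and -0.34 to 0.14 (late against middle), and H2-Eb1 late against middle from -0.0461 to 0.10. On Days 45 and 60 against Days 25 and 30, H2-Aa ranged from -0.24 to 0.0456, H2-Eb1 from -0.29 to 0.0043 and Tap2 from -0.12 to 0.032. At the Day 20 to Day 25 step, H2-Aa ranged from -0.18 to 0.41, H2-Ab1 from -0.16 to 0.50, H2-Eb1 from -0.22 to 0.38, Cd74 from -0.16 to 0.60 and Tap1 from -0.37 to 1.06. The cause was not tested. The depth of each library was not given, which limits statements on Ciita most.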
